A study of Homo sapiens with 12 samples.

Results

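The genes described here are 47 human genes of the G1/S transition, origin licensing and DNA replication, chosen by name from a fixed list of symbols. That list was drawn up with earlier results of these data known. All 47 were found among the 60675 genes of the count table, and all 47 passed the filter on low counts that left 15112 genes for testing. They were measured by strand-specific polyA+ RNA-seq in U-2932, an established cell line from a diffuse large B cell lymphoma. The cells stably expressed Roquin2, an RNA-binding protein encoded by RC3H2, either as wild type (WT) or as a mutant whose tyrosine is replaced by phenylalanine (Y691F). They were left untreated or exposed for 12 hours to 10 µg/ml of F(ab')2-IgM, an antibody fragment that cross-links the B cell receptor. Each of the 4 groups (WT untreated, WT with IgM, Y691F untreated, Y691F with IgM) held 3 libraries, which the submitters describe as biologically independent. All 4 groups carried an introduced Roquin2, so no group shows the parental cells, and the labels do not say whether each form was 1 clone, a pool or several lines. A difference between the forms therefore cannot be told apart from a difference between the 2 sets of stably expressing cells.

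DNA replication is prepared in G1, when the origin recognition complex, CDC6 and CDT1 load the ring of MCM2 to MCM7 onto DNA, a step called licensing. In S phase, MCM10, CDC45 and the GINS complex turn the loaded ring into an active helicase, polymerases with the sliding clamp PCNA copy the strands, and FEN1 and LIG1 process and join the lagging-strand fragments. Many of these genes are transcribed at the G1/S boundary by E2F factors: E2F1, E2F2 and E2F3 are activators, E2F7 and E2F8 are repressors, and cyclins E1 and E2 drive entry into S phase with CDK2. In mature B cells, signalling from the B cell receptor can lead to proliferation or to arrest and death, depending on the cell and its other signals.

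Library totals ran from 16465393 to 21478790 counts. The members were well covered: the lowest count of any member in any library was 158, and the coefficient of variation of a member within a group of 3 ran from 0.1184% to 8.944%, with a median of 2.552%. Gene positions below are those of the table, on GRCh38. Levels are CPM, counts divided by the library total and edgeR's TMM factor, unless RPKM is named. TMM factors ran from 1.037 to 1.067 without IgM and from 0.9389 to 0.956 with it. The counts of RC3H2 do not separate the endogenous from the introduced form, and how far reads of the introduced form were counted is not stated. RC3H2 averaged 110.4 ± 1.08 CPM without and 121 ± 1.80 CPM with IgM in WT (mean ± SD, n = 3), against 208 ± 0.880 and 206 ± 1.79 CPM in Y691F. The RC3H2 level thus differed along with the form, and the 2 cannot be told apart in any comparison between the forms. The summed level of 7 B cell markers was 2211 to 3459 CPM. The 5 T cell markers summed to 6.57 to 23.7 CPM, nearly all of it TRAC with CD2 and CD3D at 0, and 4 myeloid markers summed to 0.755 to 1.58 CPM. The 4 fibroblast and epithelial markers summed to 19.4 to 26.6 CPM, of which EPCAM made up 18.5 to 24.0 CPM.

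Most of the replication genes fell with IgM in both forms. In WT, 38 of 47 members (80.9%) were lower after IgM and 6 (12.8%) were higher, against 38.5% lower and 38.4% higher among all tested genes. In Y691F, 38 were again lower and 6 higher, against 38.7% and 37.1% of all tested genes. The members' median log2 change was -0.533 in WT and -0.534 in Y691F, where that of all tested genes was 0.0016 and -0.011. Summed over the members, the level went from 7922 ± 32.0 to 5774 ± 21.6 CPM in WT (mean ± SD, n = 3), a change of -27.11%, and from 7549 ± 72.5 to 5841 ± 56.6 CPM in Y691F, a change of -22.63%. For all 44 called members of each form, the 3 libraries with IgM lay wholly outside the range of the 3 untreated libraries. The share of all tested genes with such separation was not computed, so this count shows nothing particular to the members. In bulk RNA, fewer cells in S phase and less of these transcripts per cell cannot be told apart, and the cell cycle distribution was not measured in the data used here.

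**Figure D1:**
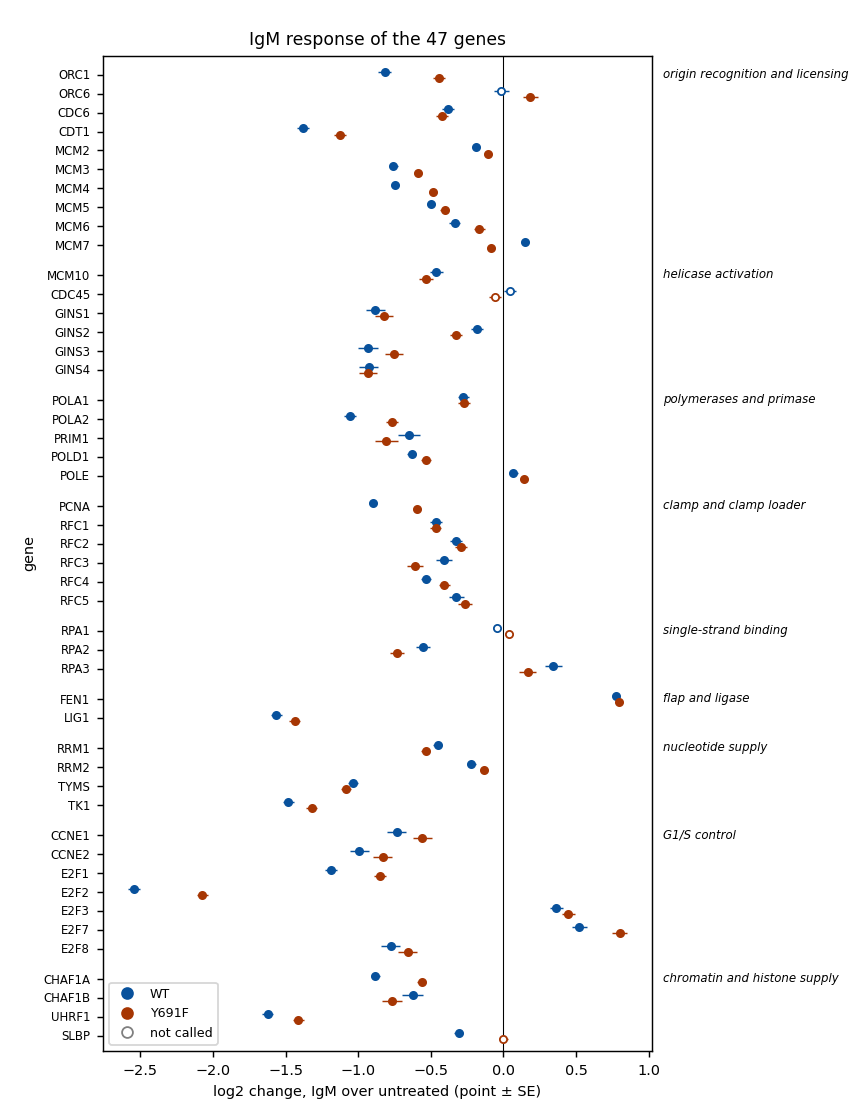
Log2 change with IgM for each of the 47 genes (vertical axis, grouped by role), in WT and Y691F cells; points are edgeR estimates from 3 against 3 libraries and bars are ± 1 SE, and filled points passed an adjusted p of 0.05. E2F2 lies farthest to the left at -2.54 in WT and -2.07 in Y691F, while FEN1 and E2F7 lie to the right of 0 in both forms.

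The fall was not uniform across the list. In WT, 8 members fell by at least 2-fold (CDT1, POLA2, LIG1, TYMS, TK1, E2F1, E2F2 and UHRF1) and 22 by at least 1.5-fold. In Y691F, 6 fell by at least 2-fold (CDT1, LIG1, TYMS, TK1, E2F2 and UHRF1) and 19 by at least 1.5-fold. Called lower in both forms were 37 members, and called higher in both were 5: E2F3, E2F7, FEN1, RPA3 and POLE, of which POLE in both forms and RPA3 in Y691F turned below 0 with library totals. MCM7, SLBP and ORC6 had different calls in the 2 forms, and CDC45 and RPA1 passed in neither. Scaling by library totals alone, without TMM, shifted the IgM response of all tested genes to a median of -0.13 in WT and -0.18 in Y691F, and split the calls of all tested genes in Y691F into 4246 higher and 7264 lower in place of 5600 and 5853. The members' own median under that scaling was -0.667 in WT and -0.704 in Y691F.

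The proximal promoters of these genes carry E2F letters more often than promoters at large, and some of the matches are shown so that their letters can be read beside the changes. Windows from 250 bases before to 50 after the transcription start (RefSeq, GRCh38.p14) were matched for 40 of the 47 members, all except E2F8, CCNE2, GINS4, MCM5, RPA3, MCM4 and RPA2. They were searched on both strands for the E2F motif in 4 spellings, TTTGGCGC, TTTCCCGC, TTTGCCGC and TTTCGCGC, where a palindromic core can match on both strands and each match was counted. At least 1 match was present in 20 of the 40 members (50.0%), against 1090 of 27305 genes (3.99%) in the whole table of promoters. CCAAT, the letters bound by NF-Y, was present in 25 of the 40 (62.5%) against 39.7%. The whole table of promoters covers more genes than were tested here, and neither share was computed over the tested genes alone. Shown are 14 matches upstream of the start, from 12 members that fell, rose or had different calls in the 2 forms; other matches of these and other members are not shown. Each sequence below is 30 bases of the gene's sense strand, 5′ to 3′, with the letters of 1 match in capitals. In both MCM6 lines another counted match, TTTCGCGC on the opposite strand, overlaps the capitals and runs on into the lower-case letters.
E2F1, chr20:33686400-33686429, minus strand: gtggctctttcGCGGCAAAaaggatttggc
E2F1, chr20:33686387-33686416, minus strand: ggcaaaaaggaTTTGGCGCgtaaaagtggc
E2F2, chr1:23531257-23531286, minus strand: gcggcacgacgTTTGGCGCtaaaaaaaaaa
E2F3, chr6:20401815-20401844, plus strand: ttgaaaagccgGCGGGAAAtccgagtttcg
CDT1, chr16:88803743-88803772, plus strand: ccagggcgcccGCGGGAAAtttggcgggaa
MCM3, chr6:52284898-52284927, minus strand: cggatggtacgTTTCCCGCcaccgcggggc
MCM6, chr2:135876577-135876606, minus strand: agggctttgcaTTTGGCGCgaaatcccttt
MCM6, chr2:135876515-135876544, minus strand: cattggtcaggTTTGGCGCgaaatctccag
MCM7, chr7:100101566-100101595, minus strand: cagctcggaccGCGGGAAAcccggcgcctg
POLA2, chr11:65261898-65261927, plus strand: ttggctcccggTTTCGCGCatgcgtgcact
PCNA, chr20:5126663-5126692, minus strand: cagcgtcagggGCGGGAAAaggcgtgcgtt
LIG1, chr19:48170440-48170469, minus strand: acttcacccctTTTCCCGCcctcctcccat
TYMS, chr18:657603-657632, plus strand: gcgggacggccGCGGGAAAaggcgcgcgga
UHRF1, chr19:4909973-4910002, plus strand: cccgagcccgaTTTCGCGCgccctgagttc
Matches were found for genes that responded in opposite directions. Of the matched members called lower with IgM in WT, 17 of 32 carried a match, and of those called higher, 3 of 5 did. In Y691F the counts were 18 of 32 for lower and 2 of 5 for higher. Of the uncalled matched members, 0 of 3 carried a match in each form. Groups of 5 and 3 genes are too small to compare. E2F2 and E2F3 each had 1 match, 42 and 53 bases before their starts counted to the first matched base. E2F2 fell with IgM and E2F3 rose. A match of letters is not a measured binding site, and E2F binding was not measured here.

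Among the 7 regulators of G1/S entry, 5 fell and 2 rose in WT, the same split as in Y691F. The activators E2F1 and E2F2 fell together with both cyclins E and with the repressor E2F8, whereas the activator E2F3 and the repressor E2F7 rose. E2F2 (ENSG00000007968, chr1:23506430-23531220, minus strand) was at 176, 183 and 175 CPM in the untreated WT libraries and at 29.8, 30.7 and 31.2 CPM with IgM. In Y691F the untreated libraries were at 189, 179 and 177 CPM and those with IgM at 43.4, 40.7 and 45.8 CPM. Untreated libraries of both forms overlapped, every library with IgM was far below them, and the Y691F libraries with IgM all lay above the WT ones. The log2 change was -2.54 (SE 0.043, adjusted p = 2.75e-66) in WT and -2.07 (SE 0.040, adjusted p = 1.05e-61) in Y691F, the largest size of any member in either form. E2F1, the activator best known for inducing S phase genes, went from 134, 127 and 129 to 58.0, 54.3 and 59.2 CPM in WT and from 113, 114 and 105 to 59.8, 64.6 and 59.3 CPM in Y691F. Here the untreated Y691F libraries were all below the WT ones, while with IgM the forms were close, with a difference that did not pass the test (0.10, adjusted p = 0.0591). E2F7, which represses E2F target genes, moved the other way, from 29.7, 31.1 and 29.6 to 41.8, 45.0 and 43.1 CPM in WT and from 29.6, 28.3 and 29.1 to 50.1, 49.9 and 51.7 CPM in Y691F. Its log2 change was 0.52 (SE 0.052, adjusted p = 3.61e-15) in WT and 0.80 (SE 0.051, adjusted p = 1.49e-25) in Y691F. E2F3 rose by 0.36 and 0.45, while CCNE1 fell by 0.74 and 0.56, CCNE2 by 0.99 and 0.83 and E2F8 by 0.78 and 0.66 on the log2 scale in WT and Y691F.

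In origin recognition and licensing, 8 of 10 members fell in WT, MCM7 rose and ORC6 did not pass the test. In Y691F, 9 fell, MCM7 among them, and ORC6 rose. CDT1 (ENSG00000167513, chr16:88803213-88809258, plus strand), the licensing factor that brings the MCM ring to origins, was at 147, 142 and 135 CPM in untreated WT libraries and 52.5, 55.0 and 55.4 CPM with IgM, and at 128, 130.4 and 119 CPM untreated and 57.3, 55.2 and 60.4 CPM with IgM in Y691F. The 2 treatments did not overlap in either form, and the log2 change was -1.38 (SE 0.041, adjusted p = 1.09e-47) in WT and -1.13 (SE 0.041, adjusted p = 1.95e-41) in Y691F. ORC1, the largest subunit of the origin recognition complex, had levels of 92.9, 97.1 and 96.5 CPM untreated and 54.8, 54.9 and 52.7 CPM with IgM in WT, and of 79.2, 81.7 and 83.5 CPM untreated and 60.3, 55.8 and 63.6 CPM with IgM in Y691F. Untreated Y691F libraries were thus all below the WT ones and those with IgM all above. ORC6, a smaller subunit of the same complex, had a log2 change of -0.015 in WT and of 0.18 in Y691F (SE 0.053, adjusted p = 0.00121), and the Y691F call was lost with library totals (0.015, adjusted p = 0.804). CDC6, the loader that acts with CDT1, fell by 0.38 and 0.42.

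The 6 subunits of the MCM ring responded to IgM by different amounts. MCM3 was at 462, 448 and 462 CPM in untreated WT and 268, 276 and 268 CPM with IgM, and at 419, 419 and 417 CPM untreated and 272, 279 and 283 CPM with IgM in Y691F. MCM4 was at 677, 682 and 671 CPM untreated and 412, 400.0 and 397 CPM with IgM in WT and at 618, 610.2 and 610.1 CPM untreated and 428, 439 and 446 CPM with IgM in Y691F. Both fell, by 0.76 and 0.75 on the log2 scale in WT. MCM7 (ENSG00000166508, chr7:100092728-100101940, minus strand), another subunit of the same ring, was at 571, 554 and 552 CPM in untreated WT and 613, 627 and 621 CPM with IgM, a log2 change of 0.15 (SE 0.027, adjusted p = 7.44e-07). In Y691F it was at 552, 559 and 535 CPM untreated and 519, 517 and 516 CPM with IgM, a change of -0.085 (SE 0.027, adjusted p = 0.00408). The 2 untreated sets overlapped, while with IgM every WT library was above every Y691F library. The WT rise was lost with library totals (0.017, adjusted p = 0.558). The other subunits of the ring fell by 0.19 for MCM2, 0.34 for MCM6 and 0.50 for MCM5.

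Per length, the ring subunits were not at equal levels. By the deposited RPKM, mean levels in untreated WT were 108.6 for MCM7, 106.9 for MCM3, 88.31 for MCM2, 84.52 for MCM4, 53.83 for MCM5 and 23.03 for MCM6. MCM7 made up 23.35% of the summed RPKM of the 6 subunits in untreated WT and 32.76% with IgM, and 24.03% and 27.84% in Y691F. MCM3 went the other way, from 22.98% to 17.17% in WT and from 22.02% to 17.97% in Y691F, and MCM6 stayed the lowest at 4.95% to 5.447%. Over the 47 members, PCNA had the highest mean RPKM in untreated WT, 206, and E2F7 the lowest, 4.08. FEN1 moved from rank 9 to rank 2 with IgM in both forms, TK1 from rank 7 to rank 14 in WT and from rank 8 to rank 13 in Y691F, and E2F2 from rank 21 to rank 40 in WT. These RPKM values follow library totals, with no TMM step.

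**Figure D2:**
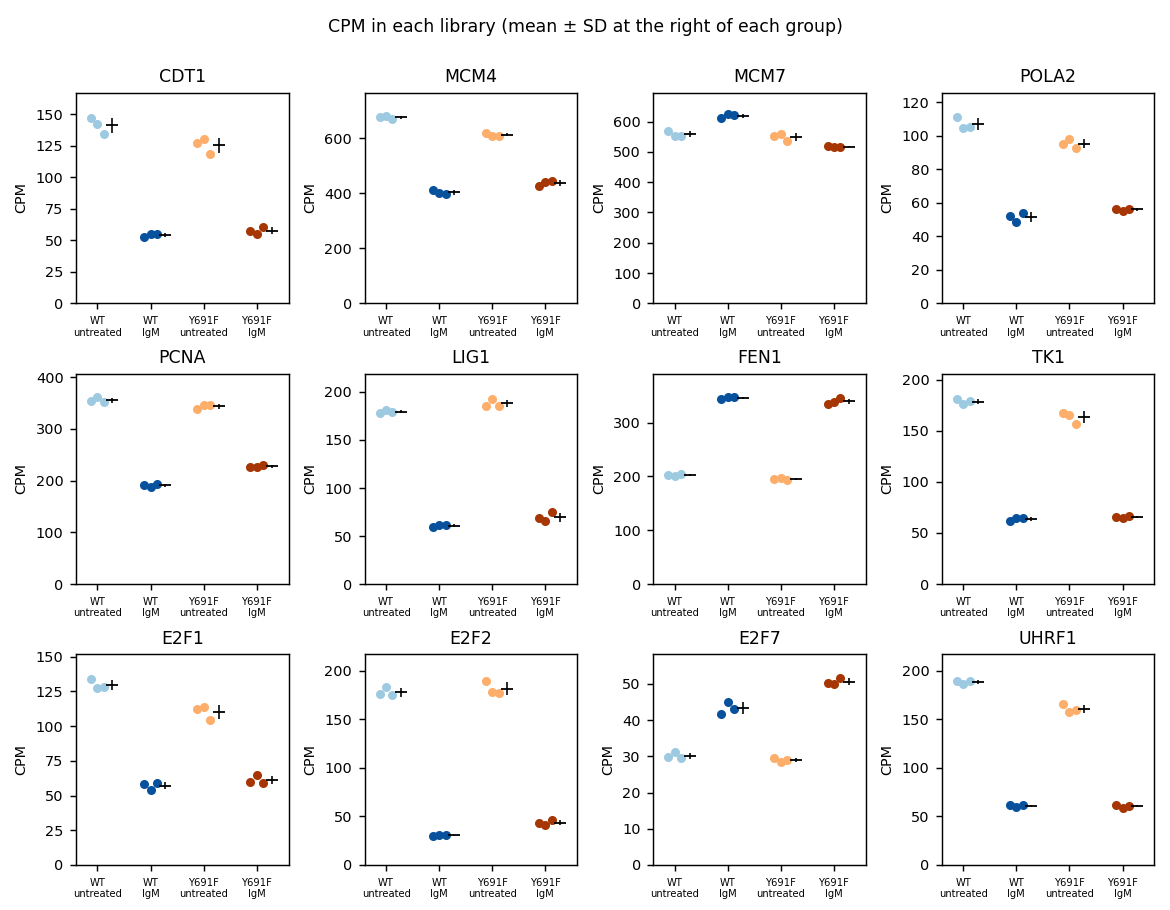
CPM (vertical axes, from 0) of 12 of the genes in each of the 12 libraries, by group; each point is 1 library, and the cross at the right of each group is the mean ± SD of its 3 libraries. FEN1 and E2F7 are higher with IgM in both forms, MCM7 is higher in WT and lower in Y691F, and the other 9 genes are lower with IgM in both forms.

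The genes that turn the licensed ring into a helicase fell with 1 exception. In each form, 5 of 6 were lower with IgM, and CDC45, which joins the ring in the active helicase, did not pass the test (0.046 in WT, adjusted p = 0.293, and -0.056 in Y691F, adjusted p = 0.216). With library totals CDC45 was called lower in WT (-0.088, adjusted p = 0.0406) and in Y691F (-0.225, adjusted p = 1.66e-06), and with the filter of 5 CPM it was called lower in Y691F (-0.110, adjusted p = 0.0123). The 4 GINS subunits act as a single complex but did not fall by equal amounts. GINS4 was at 31.5, 34.1 and 32.8 CPM in untreated WT and 17.4, 16.8 and 17.5 CPM with IgM, and at 30.9, 34.1 and 33.0 CPM untreated and 17.3, 16.2 and 18.0 CPM with IgM in Y691F. GINS1 went from 35.1, 31.4 and 33.6 to 18.9, 17.9 and 17.3 CPM in WT and from 34.1, 30.9 and 30.2 to 18.2, 17.5 and 18.3 CPM in Y691F. GINS3 went from 30.1, 30.7 and 31.6 to 15.4, 15.4 and 17.8 CPM in WT and from 31.6, 34.1 and 34.1 to 19.8, 18.8 and 20.6 CPM in Y691F. These 3 fell by 0.88 to 0.93 on the log2 scale in WT, with no overlap between treatments, against a fall of 0.18 for GINS2 (SE 0.041, adjusted p = 4.76e-05). GINS2 made up 57.27% of the summed GINS RPKM in untreated WT and 68.97% with IgM. MCM10, which helps CDC45 engage the ring, fell by 0.46 in WT and 0.53 in Y691F.

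Of the 5 polymerase and primase genes, 4 fell in each form. POLA2 (ENSG00000014138, chr11:65261762-65305589, plus strand), the accessory subunit of the polymerase that starts each strand, was at 111, 105 and 105 CPM in untreated WT and 52.4, 48.4 and 53.7 CPM with IgM, and at 95.3, 98.3 and 92.6 CPM untreated and 56.2, 55.3 and 56.5 CPM with IgM in Y691F. The catalytic subunit of the same enzyme, POLA1, fell less, by 0.28 and 0.27 against 1.06 and 0.77 for POLA2. POLD1, the catalytic subunit of the lagging-strand polymerase, went from 275, 254 and 262 to 172, 165 and 173 CPM in WT and from 250.1, 245 and 233 to 164, 171 and 168 CPM in Y691F. PRIM1, the primase, went from 20.0, 19.7 and 19.9 to 13.1, 12.4 and 12.5 CPM and from 18.6, 19.4 and 16.8 to 10.2, 11.1 and 10.0 CPM. Libraries of the 2 treatments were apart for all 3 genes in both forms. POLE, the catalytic subunit of the leading-strand polymerase, was called higher, by 0.067 in WT (adjusted p = 0.0392) and 0.14 in Y691F (adjusted p = 2.20e-05). The WT call of POLE was lost under 11 of 19 other settings and turned to -0.067 with library totals (adjusted p = 0.0394), where the Y691F value was -0.029 (adjusted p = 0.380).

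PCNA and all 5 subunits of its loader, replication factor C, fell in both forms. PCNA (ENSG00000132646, chr20:5114953-5126626, minus strand) was at 354, 361 and 352 CPM in the untreated WT libraries and 192, 188 and 194 CPM with IgM, and at 339, 346 and 346 CPM untreated and 225, 226 and 231 CPM with IgM in Y691F. Untreated, the Y691F libraries were just below the WT ones, by a difference that did not pass the test, and with IgM all of them were above all WT libraries. The log2 change was -0.90 (SE 0.030, adjusted p = 1.07e-44) in WT and -0.60 (SE 0.029, adjusted p = 8.07e-33) in Y691F. RFC4, a small subunit of the loader, went from 137, 141 and 138 to 97.2, 100.4 and 89.5 CPM in WT and from 113, 113 and 118 to 83.3, 86.2 and 89.0 CPM in Y691F. RFC1, its large subunit, went from 99.1, 103 and 105 to 75.8, 75.4 and 71.3 CPM and from 108, 117 and 113 to 81.5, 76.0 and 87.4 CPM. The loader subunits fell by 0.32 to 0.53 on the log2 scale in WT and by 0.27 to 0.61 in Y691F.

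The 3 subunits of RPA, the complex that coats single-stranded DNA, went in 3 ways. RPA2 fell, from 56.5, 58.1 and 54.8 to 38.0, 37.3 and 40.5 CPM in WT and from 56.9, 61.5 and 59.3 to 36.4, 36.4 and 33.6 CPM in Y691F. RPA3 rose in both forms, from 27.4, 26.2 and 26.1 to 33.5, 32.6 and 35.2 CPM in WT (0.34, SE 0.057, adjusted p = 1.20e-07) and from 26.7, 28.2 and 28.4 to 30.4, 32.2 and 30.8 CPM in Y691F (0.17, SE 0.057, adjusted p = 0.00681). RPA1, the large subunit, did not pass in the 5 comparisons, at 317, 332 and 317 CPM untreated and 308, 314 and 315 CPM with IgM in WT and 302, 316 and 316 CPM untreated and 313, 322 and 322 CPM with IgM in Y691F. The Y691F rise of RPA3 was lost with library totals (-0.0032, adjusted p = 0.962), and RPA1 was then called lower in WT (-0.18, adjusted p = 4.83e-08) and in Y691F (-0.132, adjusted p = 2.50e-05). With the filter of 5 CPM, RPA1 was called lower in WT (-0.088, adjusted p = 0.00359). By RPKM, RPA2 made up 29.47% of the summed RPA level in untreated WT and 22.1% with IgM, and 31.01% and 20.58% in Y691F.

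The lagging-strand pair moved apart. FEN1 (ENSG00000168496, chr11:61792637-61797244, plus strand), the flap endonuclease that trims the fragments, rose from 202, 200.2 and 205 to 344, 347 and 347 CPM in WT and from 195, 198 and 194 to 335, 338 and 345 CPM in Y691F. LIG1 (ENSG00000105486, chr19:48115445-48170603, minus strand), the ligase that then joins them, fell from 178, 181 and 179.5 to 58.9, 61.9 and 61.2 CPM in WT and from 186, 193 and 186 to 68.3, 65.6 and 74.9 CPM in Y691F. Treatments did not overlap for either gene. For FEN1 the log2 change was 0.78 (SE 0.029, adjusted p = 1.45e-40) in WT and 0.80 (SE 0.029, adjusted p = 2.42e-41) in Y691F, and for LIG1 it was -1.57 (SE 0.038, adjusted p = 2.62e-54) and -1.44 (SE 0.037, adjusted p = 1.93e-52). Most of FEN1 lies inside the span of FADS2 on the same strand, with 1.98% of its exon bases shared. FADS2 counts were 99.7% of those of FEN1, and FADS2 had a log2 change of -0.19 in WT and 0.058 in Y691F.

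All 4 genes of nucleotide supply fell in both forms. TK1 (ENSG00000167900, chr17:78174075-78187233, minus strand), the salvage kinase for thymidine, was at 181, 176 and 179 CPM in untreated WT and 61.8, 65.0 and 64.7 CPM with IgM, and at 167, 165 and 156 CPM untreated and 65.3, 64.6 and 66.2 CPM with IgM in Y691F. TYMS, which makes thymidylate, was at 216, 219 and 222 CPM untreated and 109, 106 and 106 CPM with IgM in WT and 217, 234 and 210.3 CPM untreated and 104, 106 and 102 CPM with IgM in Y691F. RRM1, the large subunit of the reductase, was at 305, 322 and 306 CPM untreated and 223, 229.9 and 229 CPM with IgM in WT and 285, 302 and 301 CPM untreated and 201, 203 and 208 CPM with IgM in Y691F. Every library with IgM was below every untreated library of its form for the 3 genes. The log2 falls in WT and Y691F were 1.48 and 1.32 for TK1, 1.03 and 1.09 for TYMS, 0.45 and 0.53 for RRM1, and 0.22 and 0.14 for RRM2, the small subunit.

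Genes that couple replication to chromatin also fell, except SLBP in Y691F. UHRF1 (ENSG00000276043, chr19:4903080-4962154, plus strand), which recruits the maintenance DNA methyltransferase to new DNA, went from 190.0, 186 and 189.7 to 61.7, 60.0 and 61.8 CPM in WT and from 166, 158 and 159.6 to 61.8, 59.0 and 60.8 CPM in Y691F. CHAF1A, a subunit of the chromatin assembly factor that deposits histones behind the fork, went from 242, 237 and 251 to 131, 129 and 135 CPM and from 208, 219 and 213 to 145, 143 and 146 CPM. CHAF1B, another subunit of that factor, went from 25.6, 23.5 and 25.4 to 16.1, 16.5 and 15.5 CPM and from 27.4, 26.2 and 29.4 to 17.4, 15.6 and 15.6 CPM. For these 3 genes the treatments did not overlap in either form. SLBP, which binds the stem-loop of histone mRNA, was at 211, 212 and 216 CPM in untreated WT and 171, 174 and 171 CPM with IgM, a log2 change of -0.31 (SE 0.032, adjusted p = 7.45e-15). In Y691F it was at 186, 199.8 and 188 CPM untreated and 191, 191 and 191 CPM with IgM, a change of -0.0022 (SE 0.031, adjusted p = 0.953). With library totals, SLBP was called lower in Y691F too (-0.171, adjusted p = 7.71e-07).

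Between the forms, the differences were small. More members were called lower than higher in untreated Y691F, and more were called higher than lower with IgM. No member differed by 1.5-fold in either setting. In untreated cells, 18 of 47 members were lower in Y691F (38.3%) and 2 were higher (4.26%), against 16.1% lower and 15.1% higher among all tested genes. The members' median log2 difference was -0.065, that of all tested genes -0.0078, and the members' summed CPM was lower by 4.703%. With IgM, 15 were higher in Y691F (31.9%) and 7 lower (14.9%), against 21.9% and 20.2% of all tested genes. The median was then 0.023 against -0.0049, and the summed CPM was 1.149% higher. That median moved with single libraries: it was 0.042 without WT with IgM replicate 2, 0.045 without replicate 3 of that group, 0.048 without Y691F with IgM replicate 1 and 0.039 without replicate 2. With library totals it was 0.0068. Libraries of the 2 forms did not overlap for 19 of the 20 called members in untreated cells, RFC2 being the exception, and for all 22 called with IgM. Here too the share over all tested genes was not computed.

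**Figure D3:**
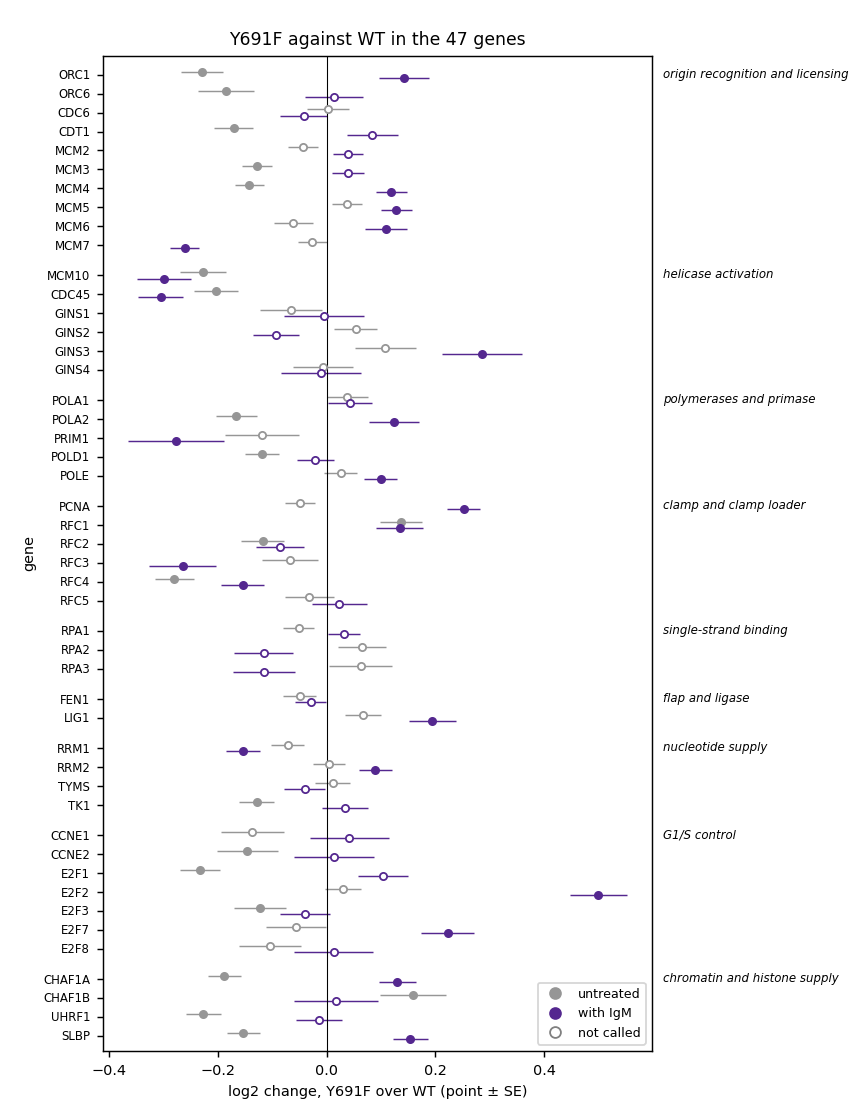
Log2 difference of Y691F from WT for each of the 47 genes (vertical axis, grouped by role), in untreated cells and with IgM; points are edgeR estimates from 3 against 3 libraries, bars are ± 1 SE, and filled points passed an adjusted p of 0.05. E2F2 with IgM has the largest difference at 0.50.

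The members lower in untreated Y691F came from all roles except single-strand binding and flap and ligase. They included 5 licensing genes, ORC1 (-0.23), ORC6 (-0.19), CDT1 (-0.17), MCM3 (-0.13) and MCM4 (-0.14). The helicase activators MCM10 and CDC45 were at -0.23 and -0.20, and POLA2 and POLD1 at -0.17 and -0.12. RFC4 had the largest difference, -0.28 (SE 0.036, adjusted p = 2.62e-10), and UHRF1 and E2F1 were at -0.23 and -0.23. TK1, CCNE2, E2F3, RFC2, CHAF1A and SLBP completed the group at -0.19 to -0.12. Higher in untreated Y691F were RFC1, at 0.14 (adjusted p = 0.00350), and CHAF1B, at 0.16 (adjusted p = 0.0376). The calls of E2F3, CCNE2, CHAF1B and RFC2 were lost under 15, 8, 5 and 4 of the 19 other settings. That of CHAF1B was lost without WT untreated replicate 2, Y691F untreated replicate 1 or Y691F untreated replicate 3, which left RFC1 as the only member called higher.

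With IgM the members higher in Y691F were led by E2F2, at 43.3 ± 2.56 CPM against 30.6 ± 0.729 CPM in WT (mean ± SD, n = 3), a log2 difference of 0.50 (SE 0.053, adjusted p = 1.83e-13). GINS3 was higher by 0.29, PCNA by 0.25, E2F7 by 0.22 and LIG1 by 0.19. Smaller differences of 0.089 to 0.15 were seen for RRM2, POLE, MCM6, POLA2, MCM4, RFC1, MCM5, CHAF1A, ORC1 and SLBP. Lower in Y691F were CDC45 at -0.31 (SE 0.041, adjusted p = 1.44e-09), MCM10 at -0.30, PRIM1 at -0.28, RFC3 at -0.27, MCM7 at -0.26 (SE 0.027, adjusted p = 1.19e-13), RFC4 at -0.15 and RRM1 at -0.15. CDC45, MCM10 and RFC4 were thus lower in Y691F in both settings and RFC1 was higher in both, while ORC1, MCM4, POLA2, CHAF1A and SLBP were lower untreated and higher with IgM. Several of the smaller calls rested on 1 library. Without Y691F with IgM replicate 3, ORC1 was at 0.106 (adjusted p = 0.0849) and RFC1 at 0.092 (adjusted p = 0.108). Without WT with IgM replicate 2, RFC4 was at -0.106 (adjusted p = 0.0563) and POLA2 at 0.090 (adjusted p = 0.181), and without WT with IgM replicate 1, RRM2 was at 0.078 (adjusted p = 0.0662). E2F1, which did not pass with IgM, was called under 6 of the 19 other settings.

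The responses to IgM themselves differed between the forms for 17 members. The test of the difference, the IgM change in Y691F minus that in WT, called 15 members higher (31.9%) and 2 lower (4.26%), against 14.7% and 11.0% of all tested genes. With library totals the members split into 13 higher and 6 lower, and all 15112 tested genes into 1847 higher and 2132 lower. Higher calls were then 68.42% of the called members and 46.42% of all called genes. The members' median difference was 0.085 on the log2 scale, beside 0.0069 for all tested genes. Since this difference uses the same 12 libraries as the comparisons above, it restates them as a single value.

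For 13 of these 15 higher members, the response was less negative in Y691F than in WT. E2F2 fell by 2.54 in WT and 2.07 in Y691F, a difference of 0.47 (SE 0.062, adjusted p = 2.00e-09). ORC1 fell by 0.82 and 0.45 (difference 0.37), E2F1 by 1.19 and 0.85 (0.34), and CHAF1A by 0.88 and 0.56 (0.32). PCNA fell by 0.90 and 0.60, a difference of 0.30 (SE 0.042, adjusted p = 6.33e-09). SLBP, POLA2, MCM4, CDT1, UHRF1, MCM3, MCM6 and TK1 showed the same order, with differences of 0.16 to 0.31. The other two were E2F7, which rose more in Y691F (difference 0.28), and ORC6, which was called higher with IgM in Y691F and not in WT (0.20). The 2 members with a lower response in Y691F were MCM7 (-0.24, SE 0.039, adjusted p = 6.47e-07) and RPA2 (-0.18, SE 0.069, adjusted p = 0.0427), RPA2 falling further in Y691F. The calls of RPA2, ORC6 and TK1 were lost under 10, 9 and 3 of the 19 other settings, and that of MCM6 without WT untreated replicate 2 (0.138, adjusted p = 0.0610). ORC1, MCM4, POLA2, CHAF1A and SLBP were lower in untreated Y691F and higher in Y691F with IgM, so both ends of the response contributed. For E2F2 and PCNA the untreated forms did not pass the test (0.030, adjusted p = 0.546, and -0.049, adjusted p = 0.185). Neither did they for MCM6 (-0.062, adjusted p = 0.191) and E2F7 (-0.057, adjusted p = 0.473). E2F1, CDT1, MCM3, UHRF1, TK1 and ORC6 were called lower in untreated Y691F. With IgM these genes did not pass between the forms (0.10, 0.084, 0.038, -0.014, 0.033 and 0.014, in that order).

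**Figure D4:**
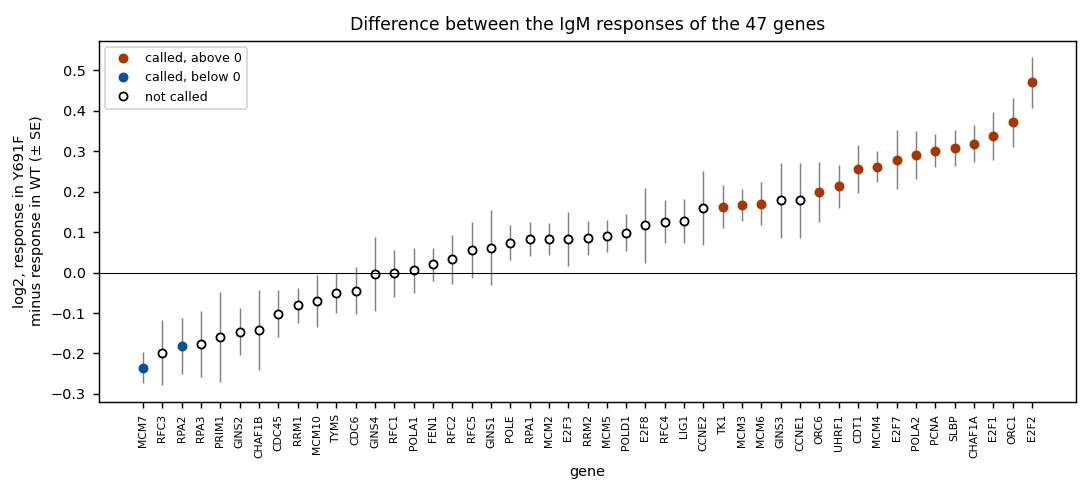
Difference between the IgM responses of the 2 forms (vertical axis, log2 change in Y691F minus that in WT) for each of the 47 genes, ordered by its size; points are edgeR estimates, bars are ± 1 SE, and the 17 filled points passed an adjusted p of 0.05. MCM7 stands at the left end with -0.24 and E2F2 at the right end with 0.47.

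Other genes of replication and the cell cycle, taken from lists of gene names, give the surroundings of these changes. Among all tested genes, 38.4% were higher and 38.5% lower with IgM in WT, and 37.1% and 38.7% in Y691F. Of 48 further replication and G1/S genes, 10 (20.8%) were higher and 32 (66.7%) lower with IgM in WT (median -0.389). In Y691F, 11 (22.9%) of these 48 genes were higher and 34 (70.8%) lower (median -0.446). Among them ASF1B, a histone chaperone, was at 177 ± 5.57 CPM untreated and 60.5 ± 1.28 CPM with IgM in WT, a log2 change of -1.55, and at 169 ± 2.73 and 75.3 ± 2.81 CPM in Y691F (-1.16). USP1, a deubiquitinase that acts on ubiquitinated PCNA, rose in both forms. It went from 111 ± 3.40 to 201 ± 2.73 CPM in WT. In Y691F it went from 109 ± 5.08 to 220 ± 8.52 CPM, a log2 change of 1.01. Of 26 G2/M genes, 2 (7.69%) were higher and 21 (80.8%) lower in WT (median -0.363). In Y691F, 3 (11.5%) were higher and 19 (73.1%) lower (median -0.276). BIRC5 was at -1.46 in WT and -1.29 in Y691F. Of 15 tested G1 regulators, 6 (40.0%) were higher and 8 (53.3%) lower in WT (median -0.172). In Y691F, 5 (33.3%) were higher and 9 (60.0%) lower (median -0.269). The higher shares of the G1 regulators were near those of all tested genes. Cyclin D3 (CCND3) fell by 2.25 and 1.60, and CDKN2C, an inhibitor of the kinases that cyclin D activates, fell by 2.31 and 1.88.

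**Figure D5:**
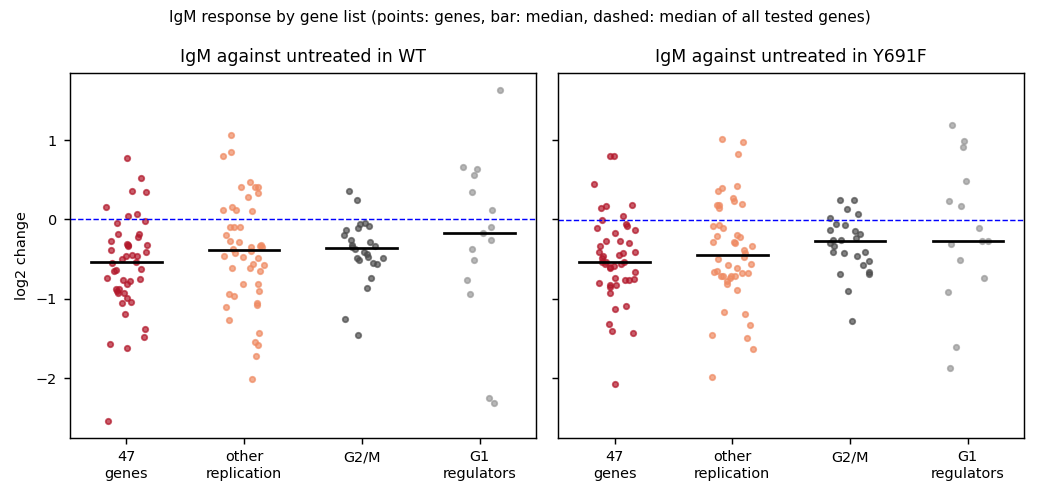
Log2 change with IgM of every gene of 4 lists (the 47 genes, 48 other replication and G1/S genes, 26 G2/M genes and 15 G1 regulators), in WT and Y691F; each point is 1 gene, each bar the list's median and the dashed line the median of all tested genes. The median of every list lies below 0 in both forms, from -0.172 for the G1 regulators in WT to -0.534 for the 47 genes in Y691F.

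With IgM, 8 of the 48 further replication genes were higher and 18 lower in Y691F (16.7% and 37.5%, median -0.049), against 21.9% and 20.2% of all tested genes. CDC25A, the phosphatase that activates CDK2, was lower by 0.34, and ASF1B was higher by 0.31. CDC25A itself rose with IgM in both forms, from 88.7 to 185 CPM in WT and from 82.8 to 146 CPM in Y691F. In untreated cells 2 of the 48 genes were higher and 8 lower (4.17% and 16.7%), a lower share near the 16.1% of all tested genes. For the responses, 9 differences were higher and 4 lower (18.8% and 8.33%), against 14.7% and 11.0%. Of the G2/M genes, 4 were higher and 12 lower in untreated Y691F (15.4% and 46.2%, against 15.1% and 16.1%). With IgM 6 were higher and 4 lower (23.1% and 15.4%, near the background), and 9 of 26 had a higher response (34.6%, against 14.7%). Of the 15 G1 regulators, 4 were higher and 3 lower untreated (26.7% and 20.0%), 5 higher and 2 lower with IgM (33.3% and 13.3%), and 4 had a higher and 2 a lower response (26.7% and 13.3%). In a list of 15 genes these shares rest on a few genes each.

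Some members share their place in the genome with other genes, and it is not stated whether the authors' counting used strand. In 12 members an overlapping gene had at least 10% of the member's counts: GINS2 (GSE1), POLA1 (EEF1B2P3), PRIM1 (NACA), RFC4 (EIF4A2), RFC5 (WSB2), RPA1 (SMYD4), RPA3 (UMAD1), FEN1 (FADS2 and TMEM258), TYMS (ENOSF1), CCNE2 (NDUFAF6 and INTS8), CHAF1A (UBXN6) and CHAF1B (MORC3). Values of these members are uncertain where reads fall on shared bases. By the GENCODE v29 annotation, 37% of the exon bases of CCNE2 are shared with INTS8 and 39.1% of those of TYMS with ENOSF1, both on the opposite strand. For the other 10 members, the shared part with any listed gene was at most 6.7% of exon bases (FEN1 with TMEM258). The largest overlapping counts were those of NACA, on the same strand as PRIM1, at 3100% of PRIM1's counts. EIF4A2, on the strand opposite RFC4, had 393% of RFC4's. NACA shares 1.35% of PRIM1's exon bases and EIF4A2 0.701% of RFC4's. ENOSF1 changed with IgM by 0.13 in WT and 0.012 in Y691F while TYMS fell by 1.03 and 1.09. INTS8 changed by -0.56 and -0.49, in the same direction as CCNE2, which fell by 0.99 and 0.83. Named pseudogenes existed for 7 members, and each had at most 0.14% of its parent's counts.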

How the data were processed

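Whole-gene read counts and RPKM values were used as deposited, in a table of 60675 genes for 12 libraries. Per the labels' protocols, RNA was fragmented chemically, primed with random hexamers and marked with dUTP in the second strand, and the labels name polyA+ RNA. The submitters' processing notes name STAR 2.5.0b, DESeq2 and GRCh38. For the counter, its strand setting and its annotation, the sources used here give nothing. The deposited count columns were tested as they stand. The RPKM values made by the authors served only to compare levels between genes per length.

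Counts were analysed in R 4.3.3 with edgeR 4.0.16 (TMM, filterByExpr, robust quasi-likelihood fit over all 12 libraries by group). Benjamini-Hochberg adjustment ran over 15112 tested genes, and a call needs an adjusted p under 0.05. SEs were derived from the log2 change and its F statistic. The script was tested on simulated data. Alternatives used DESeq2 1.42.0 size factors and Wald test, library totals, limma-voom (limma 3.58.1), no filter, a filter of 5 CPM in 3 libraries, a replicate block, and each library left out, 19 per result. Over the 12 replicate pairs, chi-square over degrees of freedom ran from 1.46 to 2.49, so no pair agreed within counting noise. The independence of the replicates rests on the submitters' description.

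The members and gene lists were chosen with earlier results of these data known. Values in every library are given for up to 3 members per role with the smallest adjusted p in any comparison, and ORC1, MCM7 and SLBP were added after their values were seen. From the other lists up to 5 or 3 genes with the smallest adjusted p per comparison could be named.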

Additional observations from a re-analysis of the deposited data

Results flagged for a closer look

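For 17 members the response to IgM differed between the forms by edgeR's test of the difference itself (log2 change in Y691F minus log2 change in WT, with its SE, 3 libraries in each of the 4 groups). Among regulators of G1/S entry these were E2F2 (0.47 ± 0.062), E2F1 (0.34 ± 0.059) and E2F7 (0.28 ± 0.073). In origin licensing they were ORC1 (0.37 ± 0.060), MCM4 (0.26 ± 0.039), CDT1 (0.25 ± 0.059), ORC6 (0.20 ± 0.074), MCM6 (0.17 ± 0.052), MCM3 (0.17 ± 0.040) and, in the other direction, MCM7 (-0.24 ± 0.039). At the fork they were PCNA (0.30 ± 0.042), POLA2 (0.29 ± 0.060) and, in the other direction, RPA2 (-0.18 ± 0.069). In nucleotide supply and chromatin they were CHAF1A (0.32 ± 0.046), SLBP (0.31 ± 0.045), UHRF1 (0.21 ± 0.053) and TK1 (0.16 ± 0.053). Adjusted p-values ran from 2.00e-09 for E2F2 to 0.0427 for RPA2. By the same test, 14.7% of all tested genes were called higher and 11.0% lower. Under the 19 other settings, the calls of RPA2, ORC6, TK1 and MCM6 were lost in 10, 9, 3 and 1. Groups of 3 libraries were not screened for single outlying libraries.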

How the results depend on the processing

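Of 19 alternatives per comparison, scaling by library totals gave all the reversals. Under it the members' median was 0.0068 for Y691F against WT with IgM, -0.046 untreated, -0.667 for IgM in WT, -0.704 for IgM in Y691F and 0.050 for the difference between responses. It left 3 members called higher with IgM in Y691F, beside 4246 of 15112 tested genes. It gave 6 members a lower response, beside 2132 of the tested genes. It reversed CDC45 (-0.088) and POLE (-0.067) for IgM in WT, and POLE (-0.029), RPA1 (-0.13) and RPA3 (-0.0032) for IgM in Y691F; the cause was not tested. With a filter of 5 CPM the medians were -0.044 untreated between forms, -0.576 for IgM in WT and -0.588 in Y691F, and 4 members had a lower response. DESeq2 size factors and the DESeq2 Wald test each gave 0.098 as the median difference between responses and 1 lower response, and no filter also gave 1. Higher in untreated Y691F was 1 member by the Wald test and 1 with no filter.

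With each library left out in turn, Y691F against WT with IgM gave medians of 0.023 to 0.048, 14 to 16 members higher and 6 to 8 lower. Untreated, it gave -0.069 to -0.053, 1 to 2 higher and 15 to 18 lower. IgM gave -0.545 to -0.506 with 5 to 6 higher and 38 lower in WT, and -0.534 to -0.486 with 6 higher and 38 lower in Y691F. The difference between responses gave 0.080 to 0.104, 13 to 17 higher and 1 to 3 lower, with 1 lower (MCM7) without replicate 3 of untreated WT or of WT with IgM, and 3 when replicate 2 of WT with IgM or replicate 1 of either Y691F group was left out.

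Replicate numbers did not pair the libraries: deviations of same-numbered libraries correlated at r of -0.064 to 0.038, 0 of 18 pairs were over 0.1, and 3 of 12 libraries correlated best with their own number. With the replicate block, Y691F against WT with IgM gave 3310 higher and 3056 lower genes in place of 3305 and 3060, and no call of a member changed.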
